A study of Rattus norvegicus with 16 samples.

Results

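The genes described here encode proteins of the synaptic vesicle and the SNARE machinery of membrane fusion: the synapsins, the SV2 proteins, the synaptotagmins, the synaptobrevins and other VAMPs, the syntaxins, the SNAP family, the complexins and the syntaxin-binding proteins. They were chosen by symbol alone (Syn, Sv2, Syt, Vamp, Stx, Snap, Cplx or Stxbp followed by a number, with or without a letter), from probe sets that the platform table assigned to a single gene. Of 14217 genes with such a probe set, 52 were members, with 82 probe sets between them. Each gene was represented by its brightest probe set over all 16 arrays. The families held 16 synaptotagmins, 12 syntaxins, 7 VAMPs, 4 SNAPs, 4 syntaxin-binding proteins, 3 synapsins, 3 SV2 proteins and 3 complexins. One of the SNAPs by symbol, *Snap91*, encodes a clathrin adaptor rather than a SNARE.

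RNA came from the whole diencephalon (thalamus and hypothalamus) of male Sprague-Dawley rats, with 1 Affymetrix array for each rat and 4 rats in each of 4 groups. All rats entered at 5 weeks of age, and all were offered 300 mM NaCl in a choice test. Zinc recovery rats (ZR) were given a diet of only 0.6 mg zinc per kg for 10 days and then a ration of 13 g of control diet for 6 days. Their controls (ZRPF) were pair-fed control diet, which held 30 mg zinc per kg, for the first 10 days and had the same ration afterwards. Zinc-deficient rats (ZD) ate the deficient diet for 10 days and were then killed. Their controls (PF) were pair-fed the control diet over the same 10 days. Out of 9 rats begun in ZR and in ZD and 6 begun in ZRPF and in PF, the submitters chose 4 each that were near the group's average (body weight, zinc in plasma, preference for salt), and the spread within a group is that of chosen rats. Before that choice, 3 ZR rats and 1 ZRPF rat had been removed for their salt preference.

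In a neuron, transmitter is stored in small vesicles that synapsins hold together in clusters. A vesicle fuses with the presynaptic membrane when synaptobrevin on the vesicle (*Vamp1*, *Vamp2*) zips up with syntaxin (*Stx1a*) and SNAP-25 (*Snap25*) on the plasma membrane. Complexin clamps and primes this bundle, synaptotagmin senses the incoming calcium, and syntaxin-binding proteins guide its assembly. Other SNAREs of the same families work in every cell, between the endoplasmic reticulum, the Golgi, endosomes and lysosomes. In the hypothalamus the same machinery also releases neuropeptides from dense-core vesicles.

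Sequences upstream of the members are shown because 7 of them differed in the same direction in both comparisons between the experiments. The 250 bases before an annotated transcript start were taken from RefSeq (rat build GRCr8), and 41 of the 52 members had such a window. Windows were searched on both strands for the GC box, GGGCGG, which is bound by Sp-family factors, and for the cyclic AMP response element (CRE), TGACGTCA. The members called in both between-experiment comparisons are printed here in the direction of the gene, 5′ to 3′, with both motifs in capitals. *Syt5* was the other such member.
Syn1: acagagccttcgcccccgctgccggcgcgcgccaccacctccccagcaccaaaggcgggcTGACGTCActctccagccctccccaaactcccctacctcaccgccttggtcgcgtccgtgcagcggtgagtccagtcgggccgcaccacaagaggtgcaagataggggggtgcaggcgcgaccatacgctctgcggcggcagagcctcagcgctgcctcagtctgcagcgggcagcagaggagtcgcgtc
Vamp2: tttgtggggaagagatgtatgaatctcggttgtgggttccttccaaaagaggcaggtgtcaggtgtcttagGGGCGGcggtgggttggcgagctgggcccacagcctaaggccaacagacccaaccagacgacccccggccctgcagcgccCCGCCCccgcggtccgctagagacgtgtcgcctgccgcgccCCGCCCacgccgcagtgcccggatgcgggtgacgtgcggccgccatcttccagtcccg
Stx1a: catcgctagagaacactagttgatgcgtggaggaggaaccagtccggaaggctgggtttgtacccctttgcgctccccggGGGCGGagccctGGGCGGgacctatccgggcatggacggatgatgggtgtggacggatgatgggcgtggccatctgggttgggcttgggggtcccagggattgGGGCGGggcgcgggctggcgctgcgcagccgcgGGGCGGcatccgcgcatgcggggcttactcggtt
Syt3: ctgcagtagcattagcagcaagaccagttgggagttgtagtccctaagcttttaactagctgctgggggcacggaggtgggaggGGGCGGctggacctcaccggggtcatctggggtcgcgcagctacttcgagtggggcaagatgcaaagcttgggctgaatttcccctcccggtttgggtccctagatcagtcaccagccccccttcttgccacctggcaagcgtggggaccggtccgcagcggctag
Vamp4: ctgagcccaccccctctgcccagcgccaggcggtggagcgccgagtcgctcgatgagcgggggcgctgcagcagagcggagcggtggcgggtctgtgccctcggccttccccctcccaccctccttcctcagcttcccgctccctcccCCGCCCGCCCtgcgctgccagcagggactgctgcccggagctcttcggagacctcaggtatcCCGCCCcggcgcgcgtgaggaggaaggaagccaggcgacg
Stx12: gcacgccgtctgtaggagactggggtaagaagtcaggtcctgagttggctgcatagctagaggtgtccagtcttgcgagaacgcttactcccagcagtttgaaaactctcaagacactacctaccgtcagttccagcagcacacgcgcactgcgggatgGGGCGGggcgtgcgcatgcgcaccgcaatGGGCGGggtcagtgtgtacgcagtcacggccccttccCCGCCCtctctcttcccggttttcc
The windows lie at chrX:3725495-3725744 (plus strand) for *Syn1*, chr10:54292539-54292788 (plus) for *Vamp2*, chr12:27306472-27306721 (minus) for *Stx1a*, chr1:104017874-104018123 (plus) for *Syt3*, chr13:77453070-77453319 (plus) for *Vamp4* and chr5:150376347-150376596 (minus) for *Stx12*. The *Syn1* window held a CRE that began 190 bases before the start and no GC box. *Stx1a* held 4 GC boxes, *Vamp2*, *Vamp4* and *Stx12* held 3 each, and *Syt3* held 1. Of the 3 in *Vamp4*, a pair overlapped. At least 1 GC box stood in 25 of the 41 members with a window (61%), against 30.5% of 33469 windows of all genes, and the median GC content was 61.6% in members against 51.2% in all windows. The CRE stood in 2 members (4.88%), *Syn1* and *Vamp1*, against 1.59% of all windows. For both motifs a member counted once if any of its windows held a match. The windows of all genes were counted singly, so the 2 shares have unlike units. Genes that were higher (*Vamp2*, *Stx1a*) and genes that were lower (*Vamp4*, *Stx12*) in the 16-day arrays both carried GC boxes. A match is a description of the letters and not a binding site.

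Signals were the authors' MAS5 values, scaled so that the trimmed mean of each array was 500.1, and were used as log2 without further scaling. The median signal was 157 to 173 per array. Arrays of one group correlated at 0.974 to 0.987, and arrays of different experiments at 0.952 to 0.972. The first principal component, with 35.1% of the variance, separated the 16-day arrays (ZR, ZRPF) from the 10-day arrays (ZD, PF). On it the arrays of ZD rats 8 and 9 stood furthest out among the 10-day arrays (21.4 and 23.0, against 13.1 to 17.3 in the others). Results that rest on them are therefore also given without both, a choice made after the data were seen. All 12 neuron markers and all 9 thalamus markers on the array were above the filter on dim probe sets, as were 10 of 12 hypothalamus markers, all but *Pomc* and *Sim1*. In bulk tissue, fewer cells of a type and less RNA per cell cannot be told apart.

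A probe set was tested when its mean log2 signal over all arrays reached the median of all probe sets, 7.35 (a signal of 163). This left 35 of the 52 members and 15521 probe sets in all. The 17 members below the filter were *Cplx3*, *Stx11*, *Stx17*, *Stxbp2*, *Sv2c*, *Syn3* and 11 synaptotagmins (*Syt1*, *Syt2*, *Syt6* to *Syt13*, and *Syt15*). *Syt1*, the fast calcium sensor of most forebrain synapses, lay just below the filter with a mean of 7.33. Its signals were 148, 151, 131 and 137 in ZR rats and 145, 141, 135 and 162 in ZRPF rats, with 141, 191, 193 and 177 in ZD rats and 198, 195, 178 and 171 in PF rats. *Syt12* lay just below as well, with a mean of 7.29. The dimmest tested members were *Stx3* (7.60) and *Vamp5* (7.66). Signals of different probe sets are not on a common scale and are not compared between genes.

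The effect of 10 days of zinc deficiency beyond that of eating less was addressed by ZD against PF. None of the 35 members passed an adjusted p of 0.05, and neither did any other probe set (0% of 15521). At an unadjusted p under 0.05 there were 0 of 35 members, against 7.86% of all probe sets, and in 0 members did the ZD and PF arrays not overlap, against 4.19% of all. The median log2 fold change of the members was -0.01, against 0.01 over all probe sets, and it ran from -0.17 to 0.22. The 95% interval lay within a 1.5-fold change in either direction for 34 of the 35, all but *Sv2b*.

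The core release genes had overlapping signals in the 10-day groups. *Snap25*, which supplies a pair of helices to the fusion bundle, had signals of 15103, 17117, 16176 and 15329 in ZD rats, against 18448, 16335, 15903 and 17313 in PF rats. These overlapped, with a log2 fold change of -0.09 ± 0.08 (± is the standard error of the fit, with 4 arrays a group; adjusted p = 0.807). The synaptic vesicle glycoprotein *Sv2a* differed by 0.07 ± 0.06 (adjusted p = 0.828), *Vamp2* by 0.04 ± 0.07 and *Stx1a* by 0.03 ± 0.13. *Syn1*, a synapsin of mature terminals, differed by -0.0036 ± 0.09. The smallest p among the members was that of *Syt17*, at 627, 754, 614 and 698 in ZD rats, against 539, 676, 668 and 450.5 in PF rats. Its groups overlapped, and its log2 fold change of 0.22 ± 0.12 did not pass (adjusted p = 0.681). *Snap29*, a SNARE of endosome and autophagosome fusion, followed with -0.16 ± 0.11 (adjusted p = 0.752). Next were *Stxbp5*, which encodes the release inhibitor tomosyn, and *Stxbp3*, a partner of syntaxin 4, each at -0.12 ± 0.09. Among the positive values, *Syt16* had 0.08 ± 0.09 and *Snap23* 0.13 ± 0.15 (adjusted p = 0.855 and 0.865). The other vesicle and release genes were nearer to 0 or less precise, with *Vamp1* at -0.01 ± 0.06, *Syn2* at -0.03 ± 0.10, *Cplx1* at -0.06 ± 0.08, *Cplx2* at 0.06 ± 0.17 and *Sv2b* at -0.15 ± 0.26. Without ZD rats 8 and 9 the *Cplx2* value was 0.50 and did not pass (adjusted p = 0.197).

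ZR against ZRPF asked whether a difference was left after 6 days of zinc. Again 0 of 35 members passed, against 0.00644% of all probe sets (1 probe set). At an unadjusted p under 0.05 there was 1 member, against 5.21% of all probe sets, and in 0 members did the arrays not overlap, against 2.98% of all. That member was *Stx3*, a plasma membrane syntaxin known from ribbon synapses and epithelia. Its signals were 198, 162, 124 and 192 in ZR rats, against 224, 250.4, 257 and 162 in ZRPF rats. The values overlapped, and the log2 fold change of -0.40 ± 0.18 did not hold after adjustment (adjusted p = 0.927). *Cplx2*, one of the 2 complexins above the filter, had 537, 584, 582 and 724 in ZR rats, against 789, 774, 825 and 671 in ZRPF rats. It differed by -0.34 ± 0.17 (adjusted p = 0.927), and 1 ZR array lay among the ZRPF arrays. *Syt5* (-0.21 ± 0.15) and *Stx6*, a syntaxin of the trans-Golgi network (-0.13 ± 0.08), were next among the negative values. The positive values of smallest p were those of *Syt16* (0.17 ± 0.09), *Syt3* (0.13 ± 0.10), *Snap29* (0.11 ± 0.11) and *Sv2b* (0.25 ± 0.26), with adjusted p of 0.927 to 0.946. The core genes of release had values near 0, with *Syn1* at 0.02 ± 0.09, *Vamp2* at -0.03 ± 0.07, *Snap25* at -0.04 ± 0.08, *Stx1a* at -0.08 ± 0.13, *Sv2a* at -0.03 ± 0.06, *Vamp1* at -0.05 ± 0.06, *Syn2* at -0.05 ± 0.10 and *Cplx1* at 0.02 ± 0.08. Intervals lay within a 1.5-fold change for 32 of 35 members, and those of *Cplx2*, *Stx3* and *Sv2b* did not. The median over the members was -0.03, against -0.01 over all probe sets.

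The difference between the changes in the 10-day and the 16-day experiment was tested as an interaction. It passed for 0 of 35 members, as for 0% of all probe sets, and 0 members against 6.6% of all had an unadjusted p under 0.05. The smallest p was that of *Snap29*, whose change was higher by 0.26 ± 0.15 in the 16-day experiment (adjusted p = 0.757). *Cplx2* followed with -0.40 ± 0.25 and *Syt17* with -0.27 ± 0.17. The remaining 5 chosen by smallest p, *Stxbp5*, *Syt4*, *Sv2b*, *Stx7* and *Vamp5*, ran from -0.21 to 0.39, with adjusted p of 0.794 to 0.84. Without ZD rats 8 and 9 the *Cplx2* value was -0.83 (adjusted p = 0.307).

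**Figure D1:**
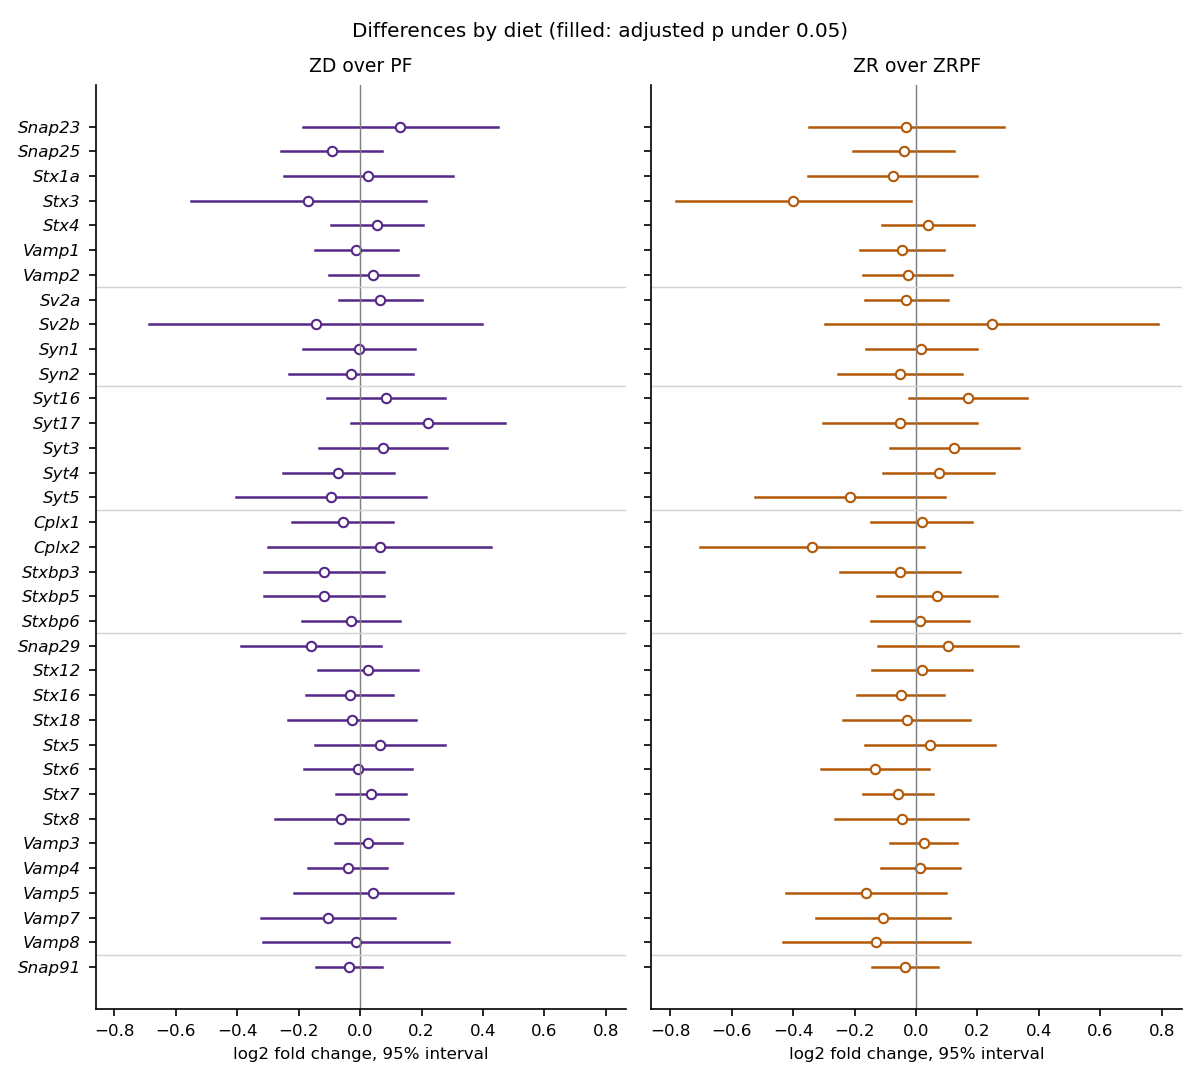
Log2 fold changes of the 35 tested members for ZD over PF (left) and ZR over ZRPF (right), with 95% intervals; grey lines part the genes by role. No point is filled, since no member passed an adjusted p of 0.05, and *Cplx2*, *Stx3* and *Sv2b* have the widest reach.

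Far more members differed between the 16-day and the 10-day experiment than by diet. Day, age, ration and experiment (and, for ZR against ZD, zinc) cannot be told apart in these comparisons. In ZR rats, *Syn1*, *Vamp2*, *Syt3*, *Syt5* and *Stx1a* were higher than in ZD rats, and *Vamp4*, *Cplx2*, *Stx12* and *Vamp3* were lower. That is 9 of 35 members (25.7%), against 17.3% of all probe sets, with 5 higher (9.16% of all) and 4 lower (8.18% of all). Between the controls, ZRPF rats had higher *Syn1*, *Vamp2*, *Syt5*, *Stx1a*, *Sv2a* and *Syt3* than PF rats, and lower *Vamp4*, *Snap29*, *Stxbp3* and *Stx12*. That is 10 of 35 (28.6%), against 15.7% of all probe sets, with 6 higher (9.5% of all) and 4 lower (6.15% of all). The split into higher and lower moved with the scaling. For ZRPF against PF it was 7 to 2 after quantile normalization and 5 to 9 after median centring, and for ZR against ZD it was 6 to 3 after quantile normalization.

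Arrays of ZR and ZD did not overlap in 7 of the 35 members, against 19.5% of all probe sets, with 5 higher (9.59% of all) and 2 lower (9.94% of all). Those of ZRPF and PF did not in 15, against 21.4% of all, with 8 higher (12% of all) and 7 lower (9.37% of all). No rat is in both comparisons. They shared 7 calls, *Syn1*, *Vamp2*, *Stx1a*, *Syt3*, *Syt5*, *Vamp4* and *Stx12*, which is 77.8% of the members called in ZR against ZD and 70% of those called in ZRPF against PF. Over all probe sets 1409 were called in both, 52.3% and 58% of each list. All 12 members called in either comparison had the same sign in both, and 25 of the 35 tested did. Both comparisons hold the same difference between the experiments, and the share of same signs over all probe sets was not computed.

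**Figure D2:**
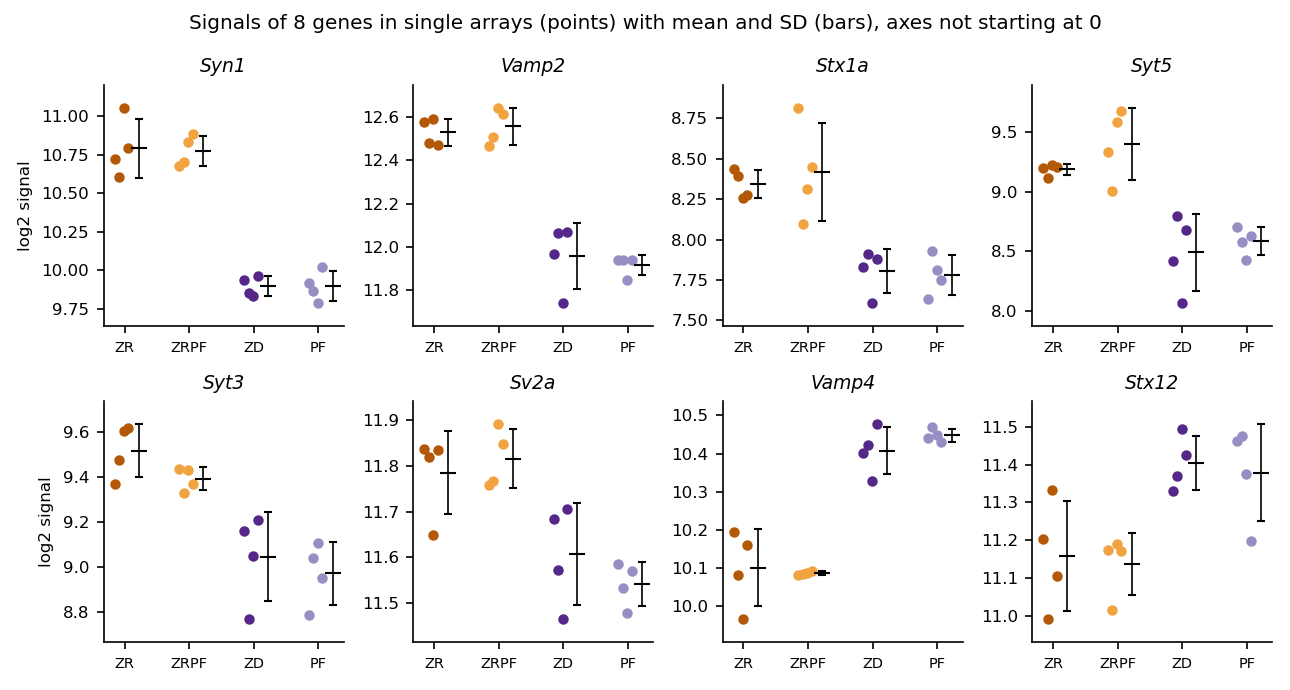
Log2 signals of 8 members in each array (points), with mean and SD beside them, for ZR, ZRPF, ZD and PF rats; the vertical axes do not start at 0. In *Syn1*, *Vamp2*, *Stx1a*, *Syt5* and *Syt3* all 8 arrays of the 16-day experiment lie above all 8 of the 10-day experiment, and in *Vamp4* all lie below.

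The members are described below by role. This grouping was not set out with the tests, and no share by role was tested. Among the 7 tested SNAREs of release, 2 were higher in each comparison (28.6%, against 9.16% of all probe sets for ZR over ZD and 9.5% for ZRPF over PF) and none passed as lower. *Vamp2*, the main synaptobrevin of the forebrain, had signals of 6099.7, 5718, 6171 and 5670.2 in ZR rats, against 4003, 4278, 3431 and 4295 in ZD rats. In the controls it had 5650.5, 5816, 6390.4 and 6272 in ZRPF rats, against 3936, 3928, 3687 and 3924 in PF rats. Every 16-day array was above every 10-day array. The log2 fold change was 0.57 ± 0.07 for ZR over ZD (adjusted p = 2.53e-05) and 0.64 ± 0.07 for ZRPF over PF (adjusted p = 7.3e-06). *Stx1a*, the plasma membrane syntaxin of the same bundle, had 347, 336, 306 and 310.2 in ZR rats, against 227, 241, 195 and 236 in ZD rats. Its signals were 450.1, 274, 318 and 349.6 in ZRPF rats, against 198, 244, 225 and 215 in PF rats. Again no 16-day array fell within the 10-day range, although ZRPF rats spread more widely than the others. The changes were 0.53 ± 0.13 (adjusted p = 0.00899) and 0.64 ± 0.13 (adjusted p = 0.00288). Without ZD rats 8 and 9 the *Stx1a* change for ZR over ZD was 0.47 and did not pass (adjusted p = 0.0727).

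The third partner, *Snap25*, measured by a single probe set, did not pass. It had 18002, 18847, 15256 and 17107 in ZR rats, against the ZD values above, a log2 fold change of 0.12 ± 0.08 (adjusted p = 0.329). In ZRPF rats it had 17561, 20524, 16904 and 16237, which gave 0.06 ± 0.08 over PF (adjusted p = 0.637). Both pairs of groups overlapped. *Vamp1*, the synaptobrevin more common in brainstem and spinal cord, had 0.14 ± 0.06 (adjusted p = 0.139) and 0.18 ± 0.06 (adjusted p = 0.0728). Its ZRPF signals of 4557, 4233, 4397 and 4672 lay above the PF signals of 4176, 4093, 3597 and 3959.5. The *Vamp1* value for ZRPF over PF was 0.22 after quantile normalization and passed (adjusted p = 0.0243), as it did with array weights (0.18, adjusted p = 0.0477), while median centring gave 0.09 (adjusted p = 0.42) and the next brightest probe set -0.16 ± 0.17 (adjusted p = 0.553). *Stx4*, the syntaxin of constitutive and insulin-stimulated delivery, differed by -0.01 ± 0.07 and 0.0035 ± 0.07, and *Snap23*, its SNAP partner outside neurons, by -0.18 ± 0.15 and -0.02 ± 0.15.

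Of the 4 tested vesicle proteins, *Syn1* was higher in both comparisons and *Sv2a* for ZRPF over PF only. That is 25% for ZR over ZD and 50% for ZRPF over PF, against 9.16% and 9.5% of all probe sets. *Syn1* had signals of 1687, 1556, 2126 and 1771 in ZR rats, against 979, 925, 911 and 999 in ZD rats. The control signals were 1638, 1669, 1825 and 1887 in ZRPF rats, against 968, 934, 885 and 1041 in PF rats. The 16-day and 10-day arrays were far apart, and within each experiment the 2 diets overlapped. The log2 fold changes, 0.90 ± 0.09 (adjusted p = 1.89e-06) and 0.87 ± 0.09 (adjusted p = 2.67e-06), had the smallest p of all members in both comparisons, and the difference between them was 0.02 ± 0.12 (adjusted p = 0.982). *Sv2a*, the target of the drug levetiracetam, had 3463, 3486, 3799 and 3687 in ZRPF rats, against 3071, 2961, 2850.2 and 3038 in PF rats. These did not overlap, and the change was 0.28 ± 0.06 (adjusted p = 0.00672), but after median centring it was 0.19 and did not pass (adjusted p = 0.052). In ZR rats it had 3661, 3615, 3212 and 3651, against 3291, 3046, 2825 and 3341 in ZD rats. There the low ZR rat 13 overlapped the ZD range, and the change of 0.18 ± 0.06 did not pass (adjusted p = 0.0619). It passed without ZR rat 13 (0.22, adjusted p = 0.0277) and without ZD rat 9 (0.21, adjusted p = 0.043).

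*Syn2* and *Sv2b* did not pass. *Syn2* differed by -0.16 ± 0.10 between ZR and ZD (adjusted p = 0.284) and by -0.13 ± 0.10 between ZRPF and PF (adjusted p = 0.388). The test of *Sv2b* was the least precise of the 35, with standard errors of 0.26. Its signals were 17593, 20751, 8135 and 18801 in ZR rats and 17036, 18844, 8227 and 10683 in ZRPF rats, with 17251, 11622, 15329 and 15189.8 in ZD rats and 18039, 14096, 16031 and 17129 in PF rats. ZR rat 13 lay far below the other ZR rats, and ZRPF rats 5 and 6 lay far below ZRPF rats 2 and 4.

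Of 5 tested synaptotagmins, *Syt3* and *Syt5* were higher in both comparisons. That is 40% in each, against 9.16% of all probe sets for ZR over ZD and 9.5% for ZRPF over PF. *Syt5*, a calcium sensor found on dense-core vesicles, had 587, 556, 598 and 591 in ZR rats, against 343, 444, 268 and 409 in ZD rats. ZRPF rats had 646, 513, 768 and 820.2, against 418, 381, 344 and 395 in PF rats. No 16-day array overlapped a 10-day array, and the ZR rats were much closer to each other than the ZRPF rats. The changes were 0.70 ± 0.15 (adjusted p = 0.00346) and 0.82 ± 0.15 (adjusted p = 0.00101). *Syt3*, a high-affinity calcium sensor, had 662, 712, 778 and 787 in ZR rats, against 572, 436, 530.5 and 592 in ZD rats. It had 694, 644, 690.3 and 662 in ZRPF rats, against 442, 527, 552 and 495 in PF rats. All 8 of the 16-day arrays were above all 8 of the others, with changes of 0.47 ± 0.10 (adjusted p = 0.00342) and 0.42 ± 0.10 (adjusted p = 0.00764). *Syt4*, an atypical synaptotagmin with altered calcium binding, differed by 0.08 ± 0.09 and -0.07 ± 0.09 at its brightest probe set. *Syt16* and *Syt17* did not pass in either comparison.

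Complexins and syntaxin-binding proteins had no member that passed as higher. *Cplx2* had 537, 584, 582 and 724 in ZR rats, against 1285, 1153, 624 and 716 in ZD rats, and 2 ZD arrays lay within the ZR range. The log2 fold change of ZR over ZD was -0.58 ± 0.17 (adjusted p = 0.0273). It did not pass without ZD rat 2 (-0.41, adjusted p = 0.0945), ZD rat 3 (-0.46, adjusted p = 0.0867), or ZR rat 7, 10 or 13 (adjusted p = 0.0765, 0.0616 and 0.0587). In a fit of the compared groups only it did not pass either (adjusted p = 0.0821). Without ZD rats 8 and 9 together it was -1.01 (adjusted p = 8.23e-05). Between ZRPF and PF it differed by -0.18 ± 0.17 (adjusted p = 0.526). *Cplx1* differed by 0.17 ± 0.08 (adjusted p = 0.143) and 0.10 ± 0.08 (adjusted p = 0.441), and passed for ZR over ZD without ZR rat 15 (0.24, adjusted p = 0.0376). At its next brightest probe set both signs turned, with -0.19 ± 0.10 (adjusted p = 0.224) and -0.23 ± 0.10 (adjusted p = 0.15). *Stxbp3* had 1503, 1597, 1598 and 1504 in ZRPF rats, against 2124, 1775, 1905 and 1865 in PF rats. The groups did not overlap, and the change was -0.30 ± 0.09 (adjusted p = 0.0334). It did not pass without PF rat 1, 4 or 6 (adjusted p = 0.109, 0.0607 and 0.0531) or ZRPF rat 2, 5 or 6 (0.0758, 0.0516 and 0.0763). Nor did it pass after quantile normalization (adjusted p = 0.0527) or without the filter (adjusted p = 0.0507). For ZR over ZD it was -0.24 ± 0.09 (adjusted p = 0.0855).

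Of the 13 tested SNAREs of endosome, Golgi and endoplasmic reticulum, 3 were lower in each comparison (23.1%, against 8.18% of all probe sets for ZR over ZD and 6.15% for ZRPF over PF) and none passed as higher. The share was not tested, and several of these calls depended on single arrays or on the probe set, as given below. *Vamp4*, which works at the trans-Golgi network and in bulk retrieval of vesicle membrane, had signals of 1172, 1084, 1001 and 1144 in ZR rats, against 1352, 1373, 1285 and 1425 in ZD rats. It had 1084, 1085, 1088 and 1093 in ZRPF rats, against 1389, 1418, 1397 and 1380.3 in PF rats. All 16-day arrays were below all 10-day arrays, and the log2 fold changes were -0.31 ± 0.06 (adjusted p = 0.00228) and -0.36 ± 0.06 (adjusted p = 0.000572). *Stx12*, a syntaxin of recycling endosomes, had 2357, 2035, 2577 and 2203 in ZR rats, against 2575, 2646, 2886 and 2752 in ZD rats, a touching pair of ranges. ZRPF rats had 2310.4, 2069.7, 2335 and 2306, against 2824, 2849.6, 2656 and 2350.1 in PF rats, without overlap. The changes of -0.25 ± 0.08 (adjusted p = 0.0346) and -0.24 ± 0.08 (adjusted p = 0.0421) were small. The *Stx12* call for ZR over ZD was lost without ZD rat 8 or 9 or ZR rat 7, 10 or 15 (adjusted p = 0.0518 to 0.12). It was also lost without ZD rats 8 and 9 together (-0.19, adjusted p = 0.222). The call for ZRPF over PF was lost without PF rat 1, 2 or 4 or any ZRPF rat (adjusted p = 0.0576 to 0.126). Without the filter or the intensity trend both calls were lost (adjusted p = 0.0557 to 0.0666). After quantile normalization that for ZRPF over PF was lost (adjusted p = 0.0739). A fit of the compared groups only lost that for ZR over ZD (adjusted p = 0.0641).

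*Vamp3*, the synaptobrevin relative of recycling endosomes in most cells, had 1794, 1783, 1812 and 1781 in ZR rats, against 2027, 1969, 2008 and 1983 in ZD rats, and 1788, 1659, 1827 and 1775 in ZRPF rats, against 2053, 1895, 1989.8 and 1905 in PF rats. Neither pair overlapped. The change of -0.16 ± 0.05 passed for ZR over ZD (adjusted p = 0.0471) and that of -0.15 ± 0.05 did not for ZRPF over PF (adjusted p = 0.052). Leaving out any 1 array of ZR or ZD ended the call for ZR over ZD (adjusted p = 0.0669 to 0.0974). Leaving out ZD rats 8 and 9 together did so too (-0.16, adjusted p = 0.136). The call was also lost after quantile normalization, without the filter, without the intensity trend and with array weights (adjusted p = 0.0508 to 0.073). In a fit of the compared groups only, the adjusted p was 0.113. *Snap29* had 666, 667, 564 and 659.7 in ZRPF rats, against 739, 708, 892 and 994 in PF rats. These did not overlap, and the change was -0.37 ± 0.11 (adjusted p = 0.0259). It did not pass without PF rat 4 (-0.34, adjusted p = 0.071), PF rat 6 (-0.28, adjusted p = 0.091) or ZRPF rat 5 (-0.31, adjusted p = 0.082), and for ZR over ZD it was -0.11 ± 0.11 (adjusted p = 0.534). Of the remaining 9 (*Stx5*, *Stx6*, *Stx7*, *Stx8*, *Stx16*, *Stx18*, *Vamp5*, *Vamp7* and *Vamp8*) none passed in either comparison. *Stx8* of late endosomes and *Stx18* of the endoplasmic reticulum had values of -0.28 to -0.26 in both, with adjusted p of 0.0674 to 0.088. *Stx5*, the syntaxin of the Golgi, had 0.25 ± 0.10 (adjusted p = 0.0942) and 0.27 ± 0.10 (adjusted p = 0.0764). The clathrin adaptor gene *Snap91* differed by -0.07 ± 0.05 in each comparison.

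**Figure D3:**
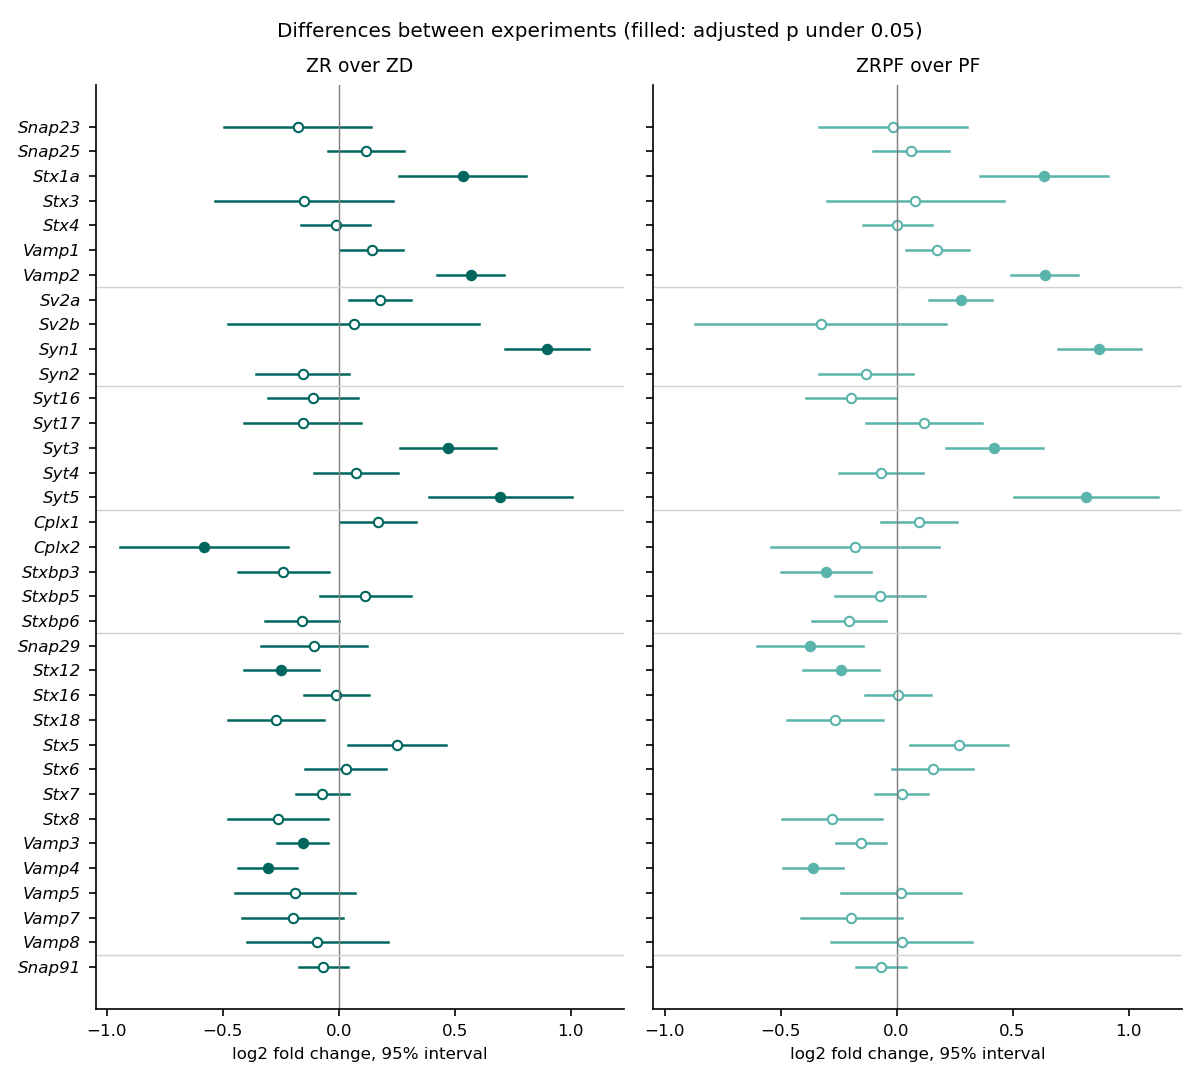
Log2 fold changes of the 35 tested members for ZR over ZD (left) and ZRPF over PF (right), with 95% intervals; filled points passed an adjusted p of 0.05, and grey lines part the genes by role. *Syn1*, *Vamp2*, *Stx1a*, *Syt3* and *Syt5* stand to the right in both panels and *Vamp4* and *Stx12* to the left. Of the 13 SNAREs of endosome, Golgi and endoplasmic reticulum, 11 lie left of 0 for ZR over ZD and 7 for ZRPF over PF. Over all probe sets, 51.1% lie left of 0 for ZR over ZD and 51% for ZRPF over PF.

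Further probe sets of the same genes did not always follow the brightest one. Of the members, 23 had more than 1 probe set, and 12 had a next one above the filter. For *Syn1* the next probe set was higher too, by 0.80 ± 0.12 for ZR over ZD (adjusted p = 0.000287) and 0.64 ± 0.12 for ZRPF over PF (adjusted p = 0.00155). *Syn2* differed between its probe sets. Its dimmest tested one had signals of 402 to 443 in ZR rats, against 255 to 386 in ZD rats, and of 444 to 620.5 in ZRPF rats, against 275 to 331 in PF rats. It was higher by 0.54 ± 0.13 (adjusted p = 0.00916) and 0.85 ± 0.13 (adjusted p = 0.00032), whereas both brighter probe sets of *Syn2* ran from -0.16 to -0.07 in these comparisons and did not pass. The next probe set of *Stxbp5* was higher by 0.81 ± 0.14 (adjusted p = 0.000741) and 0.56 ± 0.14 (adjusted p = 0.0108), while the brightest differed by 0.11 ± 0.09 and -0.07 ± 0.09. That of *Syt4* was lower for ZRPF over PF, with -0.60 ± 0.16 (adjusted p = 0.0156), and did not pass for ZR over ZD at -0.42 ± 0.16 (adjusted p = 0.0801). For *Vamp4* and *Stx12* the lower signal was not seen at the next probe set. *Vamp4* had 0.01 ± 0.11 (adjusted p = 0.982) and -0.18 ± 0.11 (adjusted p = 0.298) there, and *Stx12* had -0.04 ± 0.10 (adjusted p = 0.851) and 0.07 ± 0.10 (adjusted p = 0.701). *Sv2b* was lower at its next probe set for ZR over ZD, with -0.34 ± 0.10 (adjusted p = 0.0329). *Stx1a*, *Vamp2* and *Syt3* had further probe sets only below the filter, and *Syt5* had none. Which transcript ends the probe sets lie on was not analysed here.

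**Figure D4:**
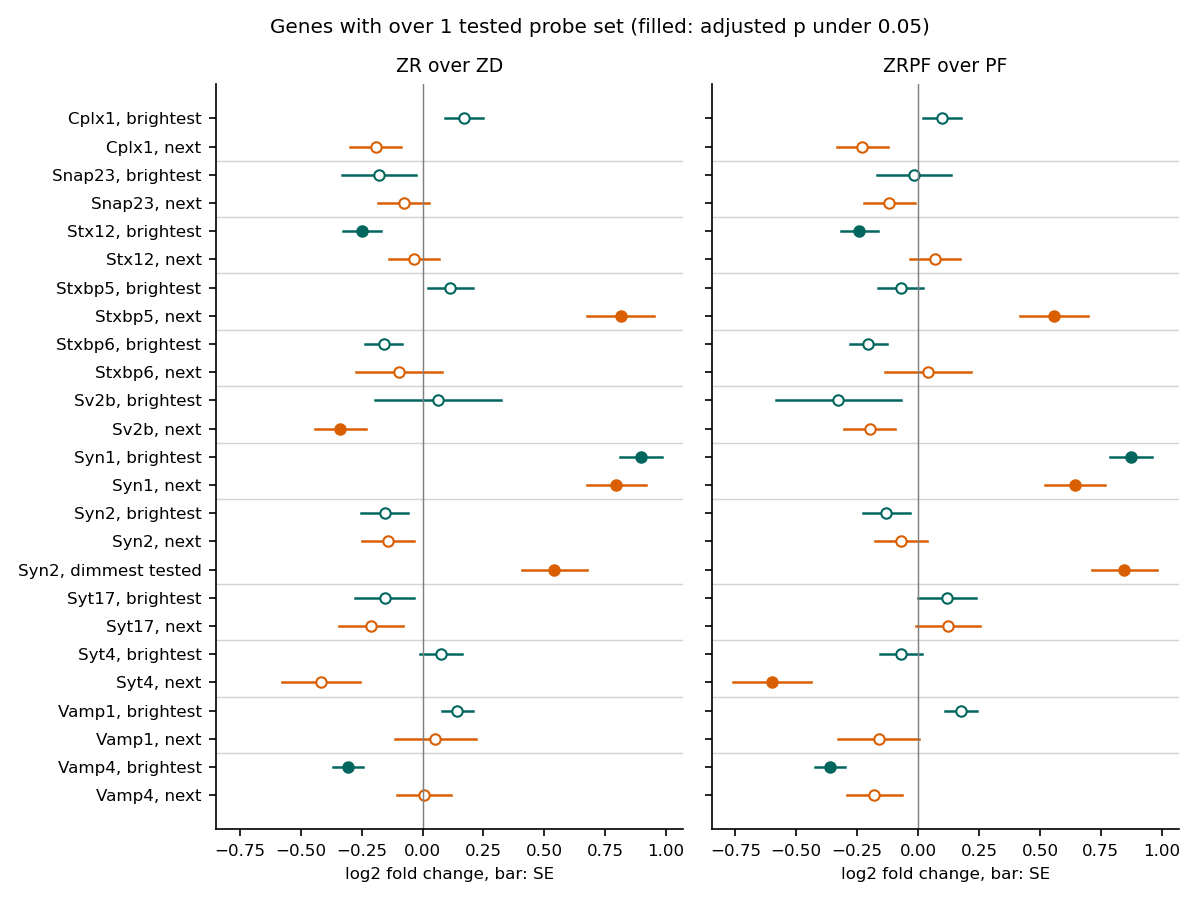
Log2 fold changes, with standard errors as bars, of the 12 members that have more than 1 tested probe set, for ZR over ZD (left) and ZRPF over PF (right). The probe sets of *Syn1* lie together, while those of *Syn2*, *Stxbp5* and *Vamp4* lie apart.

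Other genes of the vesicle cycle were set beside the members in 4 lists, none of whose genes passed in ZD against PF or in ZR against ZRPF. Over all probe sets, 9.16% were higher and 8.18% lower for ZR over ZD, and 9.5% were higher and 6.15% lower for ZRPF over PF, and the counts of these short lists are given beside those shares without a test. Among 17 tested genes of priming and the active zone, 2 were higher for ZR over ZD and 3 for ZRPF over PF, and none passed as lower. They included the vesicle GTPase *Rab3a*, with 0.36 ± 0.08 and 0.25 ± 0.08, and *Rab3b*, with 0.54 ± 0.15 for ZRPF over PF. Of 23 genes of the vesicle membrane and its transmitter loading, 4 were higher and 1 lower for ZR over ZD, and 6 were higher and 2 lower for ZRPF over PF. *Syp*, which encodes the vesicle marker synaptophysin, had 0.44 ± 0.07 and 0.34 ± 0.07. Of the proton pump that acidifies the vesicle, the membrane subunit *Atp6v0a1* was higher (0.45 ± 0.08 and 0.49 ± 0.08). Its cytosolic subunit *Atp6v1h* was lower (-0.35 ± 0.07 and -0.34 ± 0.07). The other pump genes of the list are not described here.

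Of 23 genes of vesicle endocytosis, 3 were higher and 1 lower for ZR over ZD, and 6 were higher for ZRPF over PF. For ZR over ZD that is 17.4% of the list, near the 17.3% of all probe sets called. *Dnm1*, the neuronal dynamin that pinches vesicles off, had 0.26 ± 0.05 and 0.31 ± 0.05. On the receiving side, of 14 postsynaptic scaffold genes, 3 were higher for ZR over ZD and 2 for ZRPF over PF. These included *Shank2*, a scaffold of glutamate synapses, with 0.27 ± 0.06 in each comparison. The medians of the 4 lists ran from 0.01 to 0.11 for ZR over ZD and from -0.0044 to 0.02 for ZRPF over PF. Those of the members were -0.07 and 0.0035, and those of all probe sets -0.01 in each.

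**Figure D5:**
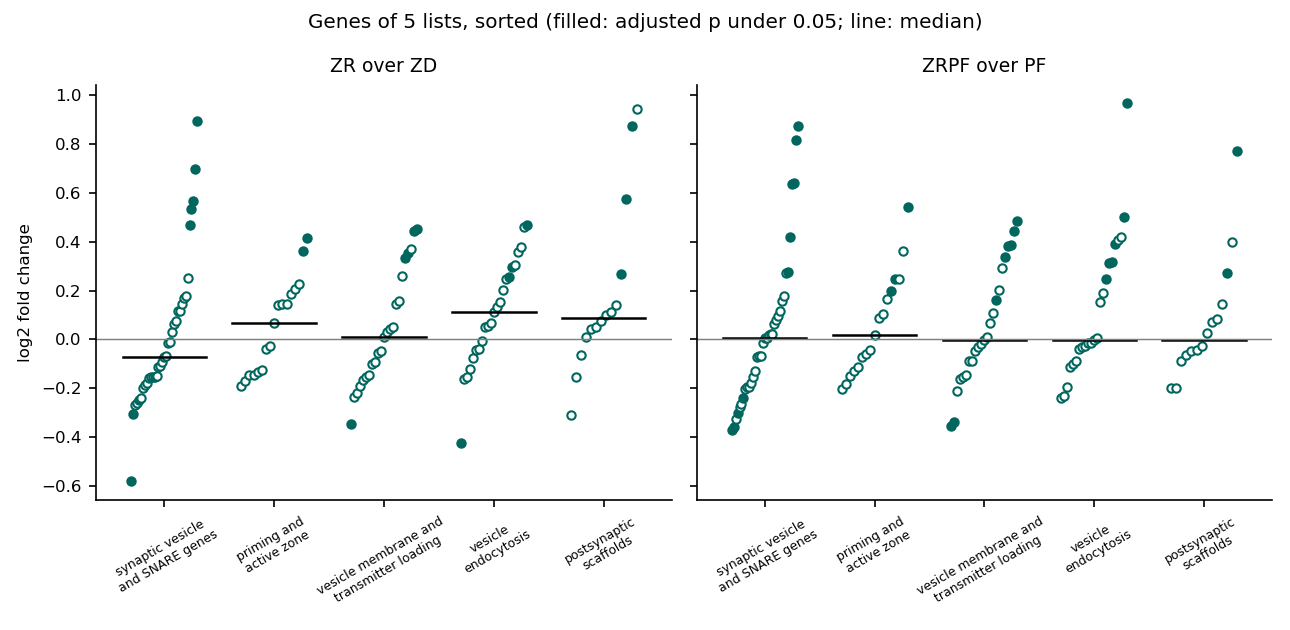
Log2 fold changes of the tested members and of 4 companion lists, each list sorted from low to high, for ZR over ZD (left) and ZRPF over PF (right); filled points passed an adjusted p of 0.05 and lines mark medians. In each list a few genes lie above the rest, while the medians run from -0.07 to 0.11.

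Some other measures also differed between the experiments. The ratio of 3 prime to 5 prime signal of the actin control probe sets was 4.15 to 4.59 in ZR rats and 4.14 to 5.59 in ZRPF rats, against 2.59 to 3.19 in ZD rats and 2.82 to 3.31 in PF rats. For *Gapdh* it was 1.15 to 1.22 in ZR rats and 1.106 to 1.23 in ZRPF rats, against 1.03 to 1.113 in ZD rats and 1.07 to 1.10 in PF rats. There ZRPF rat 6 lay below ZD rat 9. The summed signal of the hypothalamus markers was 39730.2 to 45706 in ZR rats and 42931 to 47673 in ZRPF rats, against 28163 to 37566 in ZD rats and 30379.6 to 35943 in PF rats. Over all probe sets, 9.16% were higher and 8.18% lower for ZR over ZD, and 9.5% were higher and 6.15% lower for ZRPF over PF. Of the 10 tested hypothalamus markers 4 were higher in each comparison (40%). These included *Nnat*, an imprinted gene rich in the hypothalamus, with 0.74 ± 0.12 for ZR over ZD and 0.77 ± 0.12 for ZRPF over PF. The neuron markers overlapped, with sums of 71810 to 78166 in ZR rats and 72239 to 80122 in ZRPF rats, against 70165 to 76403 in ZD rats and 69802 to 76119 in PF rats. Of the 12, 2 were higher for ZR over ZD (*Uchl1* and *Elavl4*), and 1 was higher (*Uchl1*) and 1 lower (*Nefm*) for ZRPF over PF. That is 16.7% called in each comparison, near the 17.3% and 15.7% of all probe sets. Markers of the tissue's linings differed in other ways. Meningeal and mural markers summed to 3222 to 3620 in ZR rats, against 4004 to 6342 in ZD rats, and 4 of the 7 tested were lower. They overlapped between ZRPF rats (3410.1 to 4827) and PF rats (3456 to 4219), where none passed. The sums of ependyma and tanycyte markers were apart in opposite directions, at 2955 to 3249 in ZR rats, against 3591 to 4365 in ZD rats, and at 3591 to 4062 in ZRPF rats, against 2839 to 3355 in PF rats. Of the 5 tested, 2 were lower for ZR over ZD and 1 was higher for ZRPF over PF. The same sums did not overlap between ZR and ZRPF rats or between ZD and PF rats. Choroid plexus markers varied widely between rats of one group. They summed to 22823 and 15481 in ZR rats 10 and 15 and to 25109.6 and 20135 in ZRPF rats 5 and 6, against 1938 to 3769 in the other rats of those groups, and ran from 2730 to 12976 in ZD rats and from 1747 to 2981 in PF rats. None of the 5 tested choroid plexus markers passed in any comparison. The part of any of these in the vesicle and SNARE results was not tested. The actin ratio and the hypothalamus sum followed the experiment in all arrays and cannot be told apart from it.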

How the data were processed

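The authors deposited a linear intensity for each probe set in each array, computed with MAS5 per the labels (its version is not given in the sources used here). Of 31099 probe sets in the table, 57 were controls and were not tested. Gene symbols came from the platform table, which gave 20826 probe sets a single gene, 436 several and 9780 none. All 52 members matched a current RefSeq gene table by gene identifier with no change of symbol. All 16 columns were mapped to samples by their labels. The members, the gene lists and the tests were chosen with earlier results of these data known. The lists followed the members' neighbours in the vesicle cycle and the cell types that the tissue could hold. The grouping of members by role was not set out with the tests.

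One limma 3.58.1 fit (R 4.3.3; lmFit, contrasts.fit, and eBayes with an intensity trend) held the log2 signals of all 4 groups, without covariates. Probe sets with a mean log2 signal of at least 7.35 entered, 15521 in all. Two-sided p-values received the Benjamini-Hochberg adjustment over all probe sets tested, and the threshold was 0.05. Fold changes are log2 and carry the standard error of the fit. ZR against ZRPF and ZD against PF were the diet comparisons, and ZR against ZD and ZRPF against PF those between experiments. Named were, for each comparison and direction, up to 8 members past the threshold, filled up to 4 by smallest p, and the main genes of release, with up to 3 genes of each companion list. *Vamp3* and *Stx5* in ZRPF against PF, *Stx4*, *Snap23*, *Snap91*, *Stx8*, *Stx18* and the members with differing probe sets were named after their values were seen. The number of arrays limits the precision of each value. Each array is 1 rat, and nothing further is stated about litters or days of dissection.

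Alternatives were quantile normalization, median centring, no filter, a stricter filter (10347 probe sets), array weights, a fit without the intensity trend, 32 added to each signal, the rat number as a block, the next brightest probe set, a fit of the compared groups only, and leaving out each array. Leaving out ZD rats 8 and 9 together was added after the data were seen. Promoter windows came from RefSeq (GRCr8).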

Additional observations from a re-analysis of the deposited data

Results flagged for a closer look

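In 6 of 140 checks (35 members in each of 4 groups of 4 rats), 1 rat stood further from the other 3 than Dixon's 95% criterion allows. Chance gives about 1 in 20, so 6 is no more than chance would give. *Snap29* had a log2 signal of 9.139 in ZRPF rat 5, against 9.366 to 9.381 in the other ZRPF rats, and its call for ZRPF over PF did not pass without that rat. *Stx12* had 11.02 in ZRPF rat 4, against 11.17 to 11.19, and *Stxbp5* had 10.13 in the same rat, against 10.17 to 10.18. *Sv2a* had 11.65 in ZR rat 13, against 11.82 to 11.84 in the other ZR rats, and passed for ZR over ZD without it. *Syn2* had 10.79 in ZRPF rat 5, against 10.45 to 10.48. *Vamp2* had 11.85 in PF rat 4, against 11.94 in each of the other PF rats to 4 digits, a gap far smaller than its difference between the experiments.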

How the results depend on the processing

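The count of members past the threshold was 0 for ZD against PF, for ZR against ZRPF and for the interaction under every alternative run. For ZR against ZD, where the count was 9, it ran from 6 to 10 over the alternatives, with 6 to 10 on leaving out 1 array. For ZRPF against PF, where it was 10, it ran from 7 to 14, with 7 to 10 on leaving out 1 array. Without ZD rats 8 and 9 together, 6 members passed for ZR against ZD (4 higher, 2 lower), against 10.1% of all probe sets. *Syn1*, *Vamp2*, *Syt3* and *Syt5* passed in both comparisons under every alternative run for them, as did *Stx1a* in ZRPF against PF. The next brightest probe set reversed *Stx12* for ZRPF over PF (0.0702, adjusted p = 0.701), *Vamp4* for ZR over ZD (0.00511, adjusted p = 0.982) and *Sv2b* for ZR over ZD (-0.337, adjusted p = 0.0329), and the cause was not tested. Pairing by rat number was checked only between ZRPF and PF. Same-numbered rats had correlations of deviations of 0.079, 0.02 and 0.035, against -0.096 to 0.078 for rats of different numbers. PF rats were pair-fed to ZD rats and ZRPF rats to ZR rats, so this check cannot show pairs by feeding. Whether single ZD and PF rats, or ZR and ZRPF rats, were paired was not checked. With the rat number as a replicate block, 9 members passed for ZR against ZD, 11 for ZRPF against PF and 0 in the other comparisons. ZR and ZRPF arrays share no rat number, so the block cannot stand for pairs by feeding there. Small differences, such as those of *Vamp3* and *Stx12*, stood close to the threshold and are limited by 4 arrays a group.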
